A study of Salmo salar with 72 samples.

Results

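The genes described here store, carry and sense iron, assemble iron-sulfur clusters, and make, bind and break down heme. They were chosen by name as the gene rows whose annotated product name held ferritin, transferrin, hepcidin, iron-sulfur cluster, iron-responsive, biliverdin reductase, ferrochelatase, aminolevulin, porphyrinogen or hemopexin. Heme oxygenases were not included. Of 25830 rows in the expression table, 79 matched. Of these, 10 matched only because the word acetyl-transferring holds the letters of transferrin, and they encode kinases and phosphatases of pyruvate dehydrogenase. These 10 rows were set apart, and every count of iron and heme genes below is over the other 69. The 69 were 27 ferritins, 13 heme synthesis enzymes, 11 iron-sulfur cluster assembly factors, 7 transferrin receptors, 3 transferrins, 2 hepcidins, 2 iron-responsive element-binding proteins, 2 biliverdin reductases and 2 hemopexins.

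The cells were primary hepatocytes of 6 male Atlantic salmon, freed by collagenase perfusion of the liver, plated on laminin-coated porous polystyrene scaffolds and exposed for 48 h. In arsenite (AsIII), groups at 3, 10, 30 and 100 µM and a control held cells of all 6 fish. In arsenobetaine (AsB), the methylated arsenic compound that predominates in marine fish, groups at 10, 50, 100 and 500 µM and a control also held cells of all 6 fish. In arsenate (AsV), groups at 10, 50 and 100 µM and a control held cells of fish 1 to 3. Each of the 72 libraries was 1 culture of 1 fish, all 14 groups were in the same serum-supplemented L-15 medium, and each compound had a control of its own. No genotype or age was given in the labels. The labels' free text also named an arsenosugar and other doses, so compound and dose were taken from the sample titles.

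Iron in a liver cell is held in ferritin, a hollow shell of many subunits. Fish have a middle subunit beside the heavy subunit known from mammals, whose ferroxidase activity loads the iron. In mammals, iron regulatory proteins bind iron-responsive elements in the mRNAs of ferritin and the transferrin receptor when iron is scarce, and hepcidin, a peptide hormone of the liver, limits iron export into blood. Heme is made from glycine and succinyl-CoA, a route that 5-aminolevulinate synthase opens and ferrochelatase closes by inserting iron. Heme oxygenase returns the iron and leaves biliverdin, which biliverdin reductase turns into bilirubin.

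Values are read counts divided by a size factor per library, here called normalised reads, and a change is a difference of group means of log2(value + 1), where 1 unit is a doubling. A gene was called when its adjusted p, from limma over all genes tested with Benjamini-Hochberg adjustment, was under 0.05. Libraries held 30915262 to 86419022 reads counted to genes, with a median of 38613990. All 69 genes passed the filter on low values in AsIII and AsB, and 68 did in AsV, where the transferrin receptor 1-like gene LOC106590464 did not. Scaling to library size in place of the authors' size factors put the median change of all genes at −0.21, −0.24, −0.09 and −0.05 over the rising AsIII doses and at −0.18 and −0.15 at 50 and 100 µM AsV. With the authors' size factors these medians were 0.05, 0.06, 0.04, 0.04, −0.07 and −0.06, and changes are to be read relative to them. The AsIII libraries of fish 1 at 100 µM and fish 5 at 30 µM stood apart from the others of their compound with 1694 and 1396 genes at 0, and so did the dosed AsV libraries of fish 3 with 1069 to 1729. Over all libraries of a compound the median was 208.5 genes at 0 in AsIII, 249.5 in AsV and 1608 in AsB, where it reached 2896. The part of this difference in the comparisons of AsIII and AsV with AsB was not tested. All hepatocyte markers but LOC106569632 had reads in every library, among them alb1 (albumin) and apoa1 (apolipoprotein A-I). LOC106569632 was at 0 in 36 libraries, with a median of 2 reads. These are bulk cultures, so fewer cells of a type and less RNA per cell cannot be told apart.

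At 3 µM AsIII, 36 of the 69 genes rose and 6 fell, where 29.5% of all genes tested rose and 25.0% fell, so that 54.5% were called in either direction. At 10 µM AsIII, 28 rose and 7 fell, against 26.8% and 20.5% of all genes, or 47.2% in either direction. At 30 µM AsIII, 10 rose and 6 fell, against 23.9% and 17.7%, or 41.6% in all. At 100 µM AsIII, 6 rose and 8 fell, against 22.6% and 17.3%, or 39.9% in all. With the authors' size factors, the share of iron and heme genes called was thus 60.9%, 50.7%, 23.2% and 20.3% over the rising doses. It was above the share of all genes at 3 and 10 µM and below it at 30 and 100 µM. The median change of the iron and heme genes was 0.87, 0.45, 0.18 and 0.07 over the 4 doses. The median of all genes was 0.05, 0.06, 0.04 and 0.04. Library-size scaling gave 32 higher and 9 lower at 3 µM, and 17 and 11 at 10 µM. It gave 3 and 8 at 30 µM, and 4 and 11 at 100 µM. Of 25801 genes tested, that scaling called 5651 higher and 9303 lower at 3 µM, and 4366 higher and 9082 lower at 10 µM. The share of the 69 called was then near that of all genes at 3 µM and below it at 10 µM. With the fish as a block in the fit, calls were 43 higher and 7 lower at 3 µM, and 41 higher and 7 lower at 10 µM. They were 22 higher and 9 lower at 30 µM, and 16 higher and 10 lower at 100 µM. All-gene percentages here and below are of the fit without the block, so block counts are not to be set against them. Without the library of fish 5 at 30 µM the calls there were 7 higher and 6 lower, and without that of fish 1 at 100 µM they were 4 higher and 7 lower.

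At 50 µM AsV, 19 of 68 genes rose and none fell, against 4.23% of all genes higher and 2.74% lower, or 6.97% in all. At 100 µM AsV, 18 rose and none fell, against 4.47% of all genes higher and 2.21% lower, or 6.68% in all. Leaving out 1 fish lowered the count at 50 µM, to 10 without fish 3. At 100 µM the count was 12 without fish 1, 10 without fish 2 and 23 without fish 3. The fit with the fish as a block called 24 higher and 1 lower at 50 µM, and 23 higher at 100 µM. Median changes of the 68 genes were 0.65 and 0.67, while the medians of all genes were −0.07 and −0.06. Middle-subunit ferritin made up most of this: of the other 46 genes, 1 rose at 50 µM AsV and 2 rose at 100 µM AsV, with median changes of 0.22 and 0.14. In AsIII the 47 genes other than middle-subunit ferritin had 16 calls higher and 6 lower at 3 µM, 13 higher and 7 lower at 10 µM, 6 each way at 30 µM, and 6 higher and 7 lower at 100 µM. Their median changes there were 0.20, 0.21, 0.04 and 0.00. At each dose the share of these 47 called was below the 54.5%, 47.2%, 41.6% and 39.9% of all genes.

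At 10 µM AsV limma called none of the 68 genes, and 0.0% of all genes, with 1 of the 68 at an unadjusted p under 0.05. In AsB limma called none of the 69 at 10, 50, 100 or 500 µM, again with 0.0% of all genes called, and with 1, 1, 0 and 3 of the 69 at an unadjusted p under 0.05. edgeR and DESeq2 on the recovered reads also called 0 in each of these 5 comparisons.

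**Figure D1:**
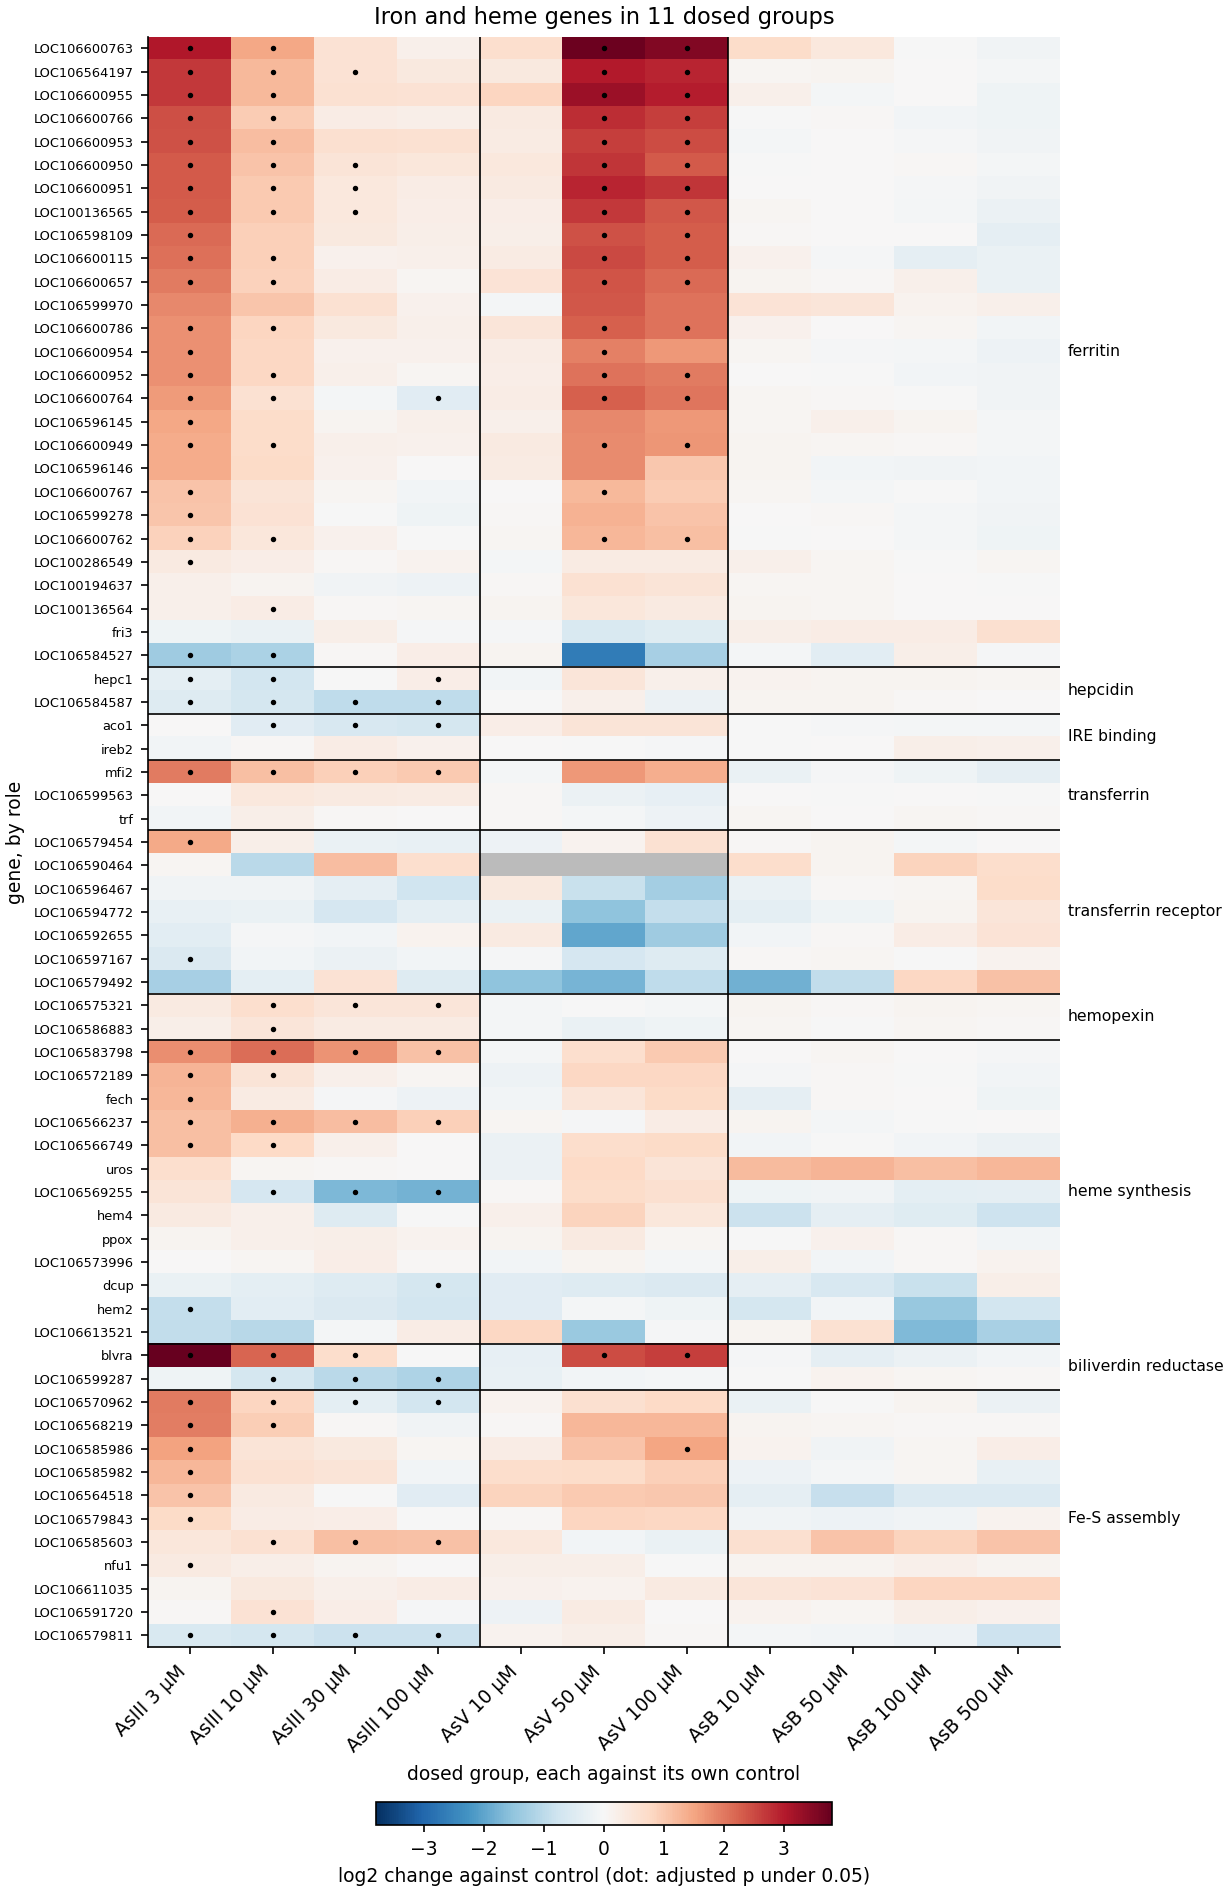
Change of each of the 69 iron and heme genes (rows, ordered by role) in the 11 dosed groups (columns, each against the control of its own compound), on the log2 scale from blue (lower) to red (higher). A dot marks a limma adjusted p under 0.05, grey marks a gene not tested, and the red block of middle-subunit ferritins at 3 and 10 µM AsIII and at 50 and 100 µM AsV shows beside AsB columns without a dot.

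Ferritin middle-subunit genes gave the broadest response at 3 and 10 µM AsIII and at 50 and 100 µM AsV. At 3 µM AsIII, 20 of the 22 rose, with a median change of 1.90 and a range of 0.87 to 3.05. At 10 µM, 15 rose with a median of 0.89, at 30 µM 4 rose with a median of 0.28, and at 100 µM none rose and 1 fell with a median of 0.19. Of all genes tested, 29.5%, 26.8%, 23.9% and 22.6% rose over these doses. The share of the 22 that rose was thus below that of all genes at 30 and 100 µM. The 2 not called at 3 µM, LOC106599970 and LOC106596146, were called with the fish as a block, and the block called all 22 at 3 and at 10 µM, and 11 higher at 30 µM and 8 higher at 100 µM. Library-size scaling left none of them called higher at 30 µM. In AsV, 18 rose at 50 µM with a median of 2.37, and 16 rose at 100 µM with a median of 2.12, against 4.23% and 4.47% of all genes. With the block, 22 were called higher at 50 µM AsV and 21 at 100 µM AsV. None fell in AsV, and none was called in AsB.

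Summed over the 22 genes, AsIII libraries held 128178 ± 13677 normalised reads in the control, 448252 ± 68837 at 3 µM, 225784 ± 28022 at 10 µM, 153646 ± 26955 at 30 µM and 145421 ± 20153 at 100 µM (SD, n = 6 each). These sums were 0.338%, 0.982%, 0.482%, 0.370% and 0.362% of all reads. The lowest library at 3 µM, with 360256, lay above the highest control library, with 142637, and the 10 µM libraries of 178048 to 252396 lay between them. The AsV sums were 119350 ± 8941 in the control, 152988 ± 43466 at 10 µM, 573196 ± 199483 at 50 µM and 503216 ± 115576 at 100 µM (SD, n = 3 each). Every library at 50 and 100 µM AsV, from 379496 up, exceeded every AsV control library. The AsB means stayed between 121387 and 136451 over the control and 4 doses.

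**Figure D2:**
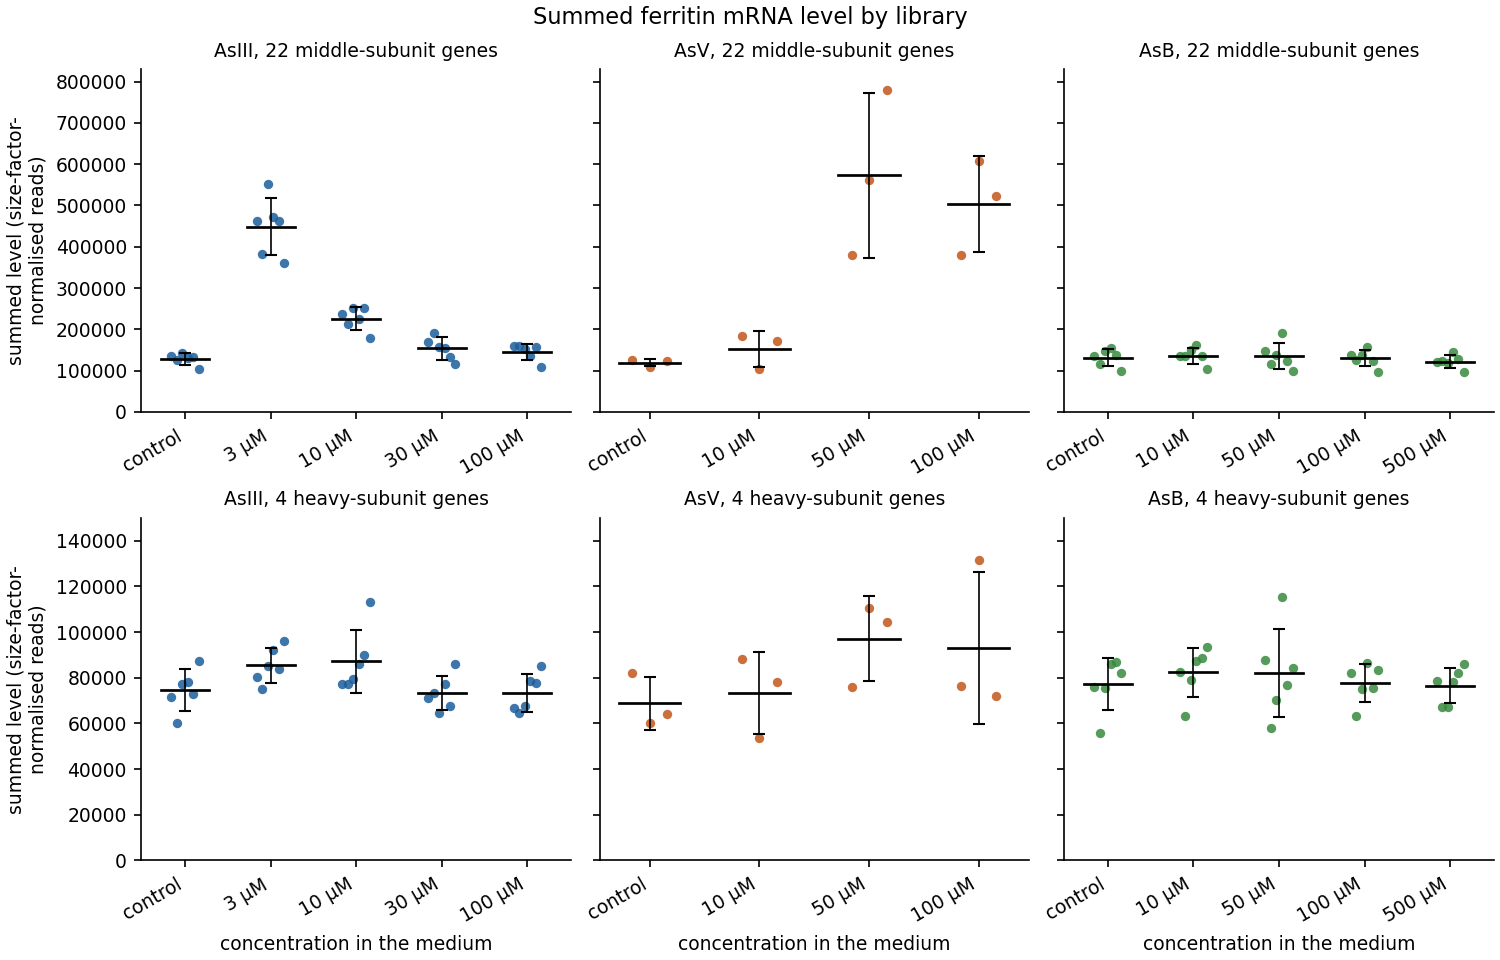
Summed level of the 22 middle-subunit (top) and 4 heavy-subunit (bottom) ferritin genes in each library, in normalised reads, by dose of AsIII, AsV and AsB; points are libraries, the line is the mean and the bar the SD. The middle-subunit sum averages 448252 at 3 µM AsIII, against 128178 in the AsIII control, and returns towards the control at 30 and 100 µM, while the heavy-subunit sums overlap between groups.

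LOC106600949, which took the most reads of the middle-subunit genes, shows the dose pattern. At 3 µM AsIII its lowest, median and highest libraries had 123770, 150652 and 164374 normalised reads, against 48135, 56362 and 59041 in the AsIII control. The median was 88575 at 10 µM, 60142 at 30 µM and 61112 at 100 µM. No library overlapped the control at 3 or 10 µM, and libraries overlapped at 30 and 100 µM. Its change was 1.42 ± 0.10 at 3 µM (SE, adjusted p = 5.78e-14), 0.70 at 10 µM (adjusted p = 5.24e-07), 0.18 at 30 µM (adjusted p = 0.14) and 0.15 at 100 µM (adjusted p = 0.228). With the fish as a block the last 2 were called, at adjusted p = 0.00897 and 0.0293, with 5 of 6 fish higher at each dose. In AsV, fish 1 to 3 had 128959, 182205 and 205679 normalised reads at 50 µM, against 52069, 45284 and 48990 in the AsV control, a change of 1.80 ± 0.25 (adjusted p = 0.00142). Without fish 3 that call was lost, at a change of 1.66 and adjusted p = 0.0669, with 2 libraries left in each group.

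The largest ferritin changes were in genes with fewer reads. LOC106600763 had 342, 403 and 732 normalised reads (lowest, median and highest) at 3 µM AsIII, against 31.7, 55.9 and 77.6 in the AsIII control, with no overlap and a change of 3.05 ± 0.30 (adjusted p = 1.75e-10). In AsV it had 484, 681 and 1400 at 50 µM, against 61.0, 46.1 and 67.1 in the AsV control, a change of 3.73 ± 0.46 (adjusted p = 0.000659). LOC106564197 had 16046, 20703 and 28423 at 3 µM AsIII, against 2169, 3538 and 4248 in the AsIII control, a change of 2.67 ± 0.20 (adjusted p = 2.1e-12). It was still higher at 30 µM AsIII, by 0.54 (adjusted p = 0.0319; 0.132 with library-size scaling), and in 6 of 6 fish. All 3 of its AsV libraries at 50 µM, with 16517, 21675 and 42910, lay above those of the AsV control, with 3082, 2994 and 3179. LOC106600955 changed by 2.67 ± 0.30 at 3 µM AsIII (adjusted p = 1.21e-08) and by 3.24 ± 0.37 at 50 µM AsV (adjusted p = 0.000379), without overlap in either.

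At the higher AsIII doses these 4 genes were near or above their control levels. LOC106600763 was 0.53 above control at 30 µM (adjusted p = 0.152; 0.026 with the fish as a block). LOC106600955 was 0.59 above at 30 µM and 0.55 above at 100 µM, not called (adjusted p = 0.122 and 0.156), and called with the block (0.00136 and 0.00284). LOC106564197 at 100 µM likewise differed by 0.37 with adjusted p = 0.145, and 0.00159 with the block. LOC106600764 was the only middle-subunit gene called lower at 100 µM AsIII, with a change of −0.44 ± 0.13 (adjusted p = 0.0068), in 6 of 6 fish though the groups overlapped, after a change of 1.63 at 3 µM. It is named here because the count holds 1 gene.

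Of the 22 middle-subunit genes, 18 matched the RefSeq gene table of Atlantic salmon (assembly Ssal_v3.1), and all 18 lie on 1 chromosome within a run of 28 annotated genes. LOC106600786 among them is entered there as a pseudogene. Neighbouring copies with like sequence can share reads, and how reads with several matches were counted is not given in the sources used here, so the split of reads between single middle-subunit genes is uncertain, and how far their sum is affected was not tested.

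The other ferritin genes gave smaller changes, apart from LOC106584527, and none was called in AsV or AsB. Summed over the 4 heavy-subunit genes, AsIII libraries held 74595 ± 9011 normalised reads in the control, 85365 ± 7769 at 3 µM, 87221 ± 13720 at 10 µM, 73299 ± 7512 at 30 µM and 73380 ± 8215 at 100 µM (SD, n = 6 each). LOC100286549 rose by 0.33 at 3 µM AsIII (adjusted p = 0.0105), but differed by 0.07 under library-size scaling, and at 10 µM it was called with the fish as a block (0.25, adjusted p = 0.0129; 0.06 without). LOC100136564 rose by 0.28 at 10 µM AsIII (adjusted p = 0.02), differed by −0.03 under that scaling, and at 3 µM was called with the block (0.20, adjusted p = 0.00171; 0.088 without). LOC100194637 was called with the block alone, higher at 3 µM AsIII (0.20, adjusted p = 0.00163) and lower at 30 µM (−0.14, 0.0257) and 100 µM (−0.19, 0.00392), and without the block its adjusted p was 0.111, 0.291 and 0.16. LOC106584527, a heavy-subunit-like gene with few reads, fell to 10.7 to 24.6 normalised reads at 3 µM AsIII, against 29.9 to 57.985 in the AsIII control, a change of −1.34 ± 0.31 (adjusted p = 0.000491), and fell by 1.21 at 10 µM. The lower-subunit gene fri3 was called in no comparison with a control.

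The 2 hepcidin genes fell together at the lower AsIII doses and separated at the higher ones. LOC106584587 had 93533, 115684 and 123939 normalised reads (lowest, median and highest) at 10 µM AsIII, against 130719, 179037 and 232433 in the AsIII control. Its median was 124608 at 3 µM, 93767 at 30 µM and 95098 at 100 µM. All 6 fish were lower at every dose, and the groups did not overlap at 10, 30 or 100 µM. The change was −0.48 ± 0.12 at 3 µM (adjusted p = 0.00134), −0.68 at 10 µM (3.51e-05), −0.96 at 30 µM (1.94e-07) and −0.97 at 100 µM (2.14e-07).

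hepc1 had 23160, 27055 and 28413 normalised reads at 10 µM AsIII, against 33626, 43341 and 48684 in the AsIII control, again with no overlap. It changed by −0.37 ± 0.10 at 3 µM (adjusted p = 0.00187), −0.68 at 10 µM (6.78e-07), −0.03 at 30 µM (0.853) and 0.25 at 100 µM (0.0441, and 0.183 under library-size scaling). The median of LOC106584587 was at its lowest at 30 µM. Within fish, the change of hepc1 exceeded that of LOC106584587 by 0.93 ± 0.19 at 30 µM and 1.21 ± 0.16 at 100 µM (SD, n = 6 fish, 6 of 6 positive at each dose). A two-sided exact permutation test over fish gave p = 0.03125 for each, the smallest p that 6 fish allow, and 0.04167 after adjustment over 16 such tests. The genes differed by 0.12 at 3 µM (exact p = 0.21875) and −0.01 at 10 µM (exact p = 0.9375). Neither was called in AsV, where hepc1 had 47135, 70950 and 56718 at 50 µM, against 45013, 41277 and 38104 in the AsV control (change 0.47, adjusted p = 0.237).

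The 16 tests covered the 4 roles that held exactly 2 genes at 4 AsIII doses. In the pair of iron-responsive element-binding proteins, aco1 (protein 1, which in mammals is also the cytosolic aconitase) fell and ireb2 (protein 2) was not called. aco1 had 3700, 4179 and 4810 normalised reads at 100 µM AsIII, against 6299, 6564 and 7384 in the AsIII control. It changed by 0.02 at 3 µM, −0.42 ± 0.09 at 10 µM (adjusted p = 0.000368), −0.60 at 30 µM (3.45e-06) and −0.67 at 100 µM (6.75e-07), with all 6 fish lower and no overlap at the last 3 doses. ireb2 had medians of 1400 in the control and 1221, 1370, 1766 and 1603 over the rising doses. Its largest difference, 0.29 at 30 µM, had adjusted p = 0.262 and 0.0445 with the fish as a block. The change of ireb2 exceeded that of aco1 by 0.46 at 10 µM and 0.85 at 100 µM (exact permutation p = 0.03125, adjusted 0.04167, 6 of 6 fish each), and by 0.89 at 30 µM (exact p = 0.0625, adjusted 0.07692, 5 of 6 fish). In AsV, aco1 had 11082, 7522 and 8865 normalised reads at 50 µM, against 6725, 5865 and 6890 in the AsV control, without overlap and not called (0.48, adjusted p = 0.22).

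**Figure D3:**
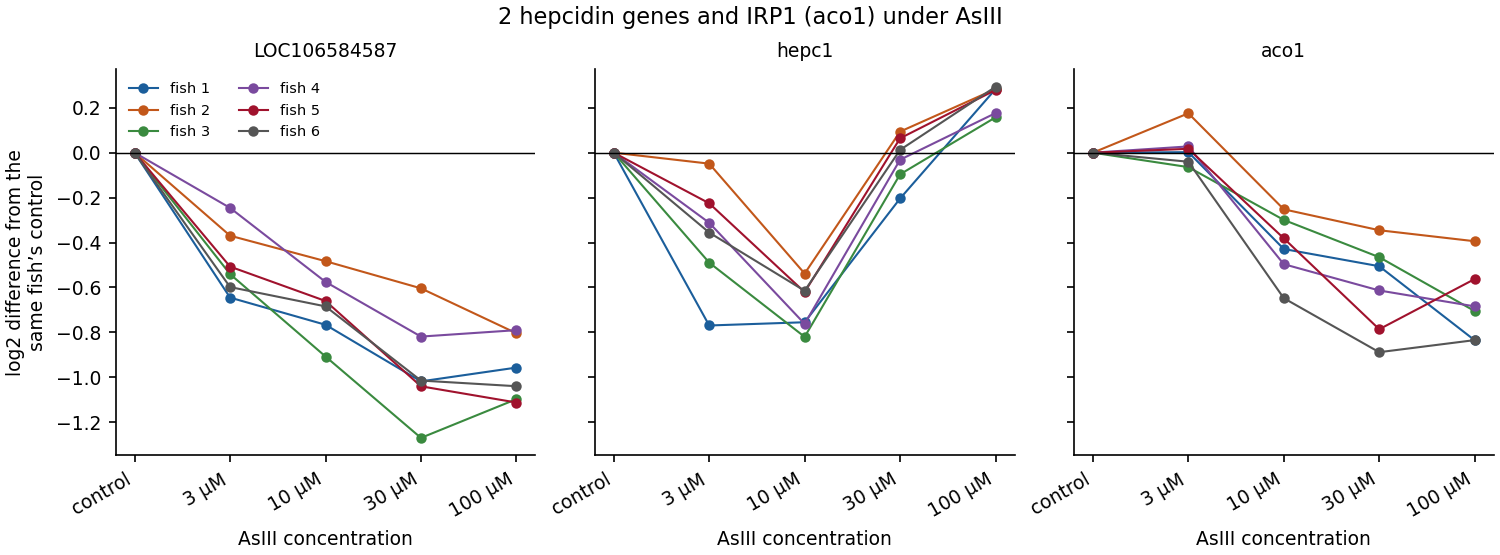
Log2 difference of each fish's library from the same fish's control, by AsIII dose, for the hepcidins LOC106584587 and hepc1 and for aco1. All 6 fish lie below 0 at every dose for LOC106584587, while hepc1 lies below 0 at 3 and 10 µM and in all 6 fish above 0 at 100 µM.

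Of the 3 transferrins, the blood iron carriers and their relatives, 1 rose in AsIII. Of all genes tested, 29.5%, 26.8%, 23.9% and 22.6% rose over the AsIII doses. The serotransferrin gene trf had medians of 913806 in the AsIII control, 861510 at 3 µM, 1058302 at 10 µM, 953779 at 30 µM and 933554 at 100 µM. Groups overlapped throughout. The difference of −0.11 at 3 µM was not called (adjusted p = 0.464; 0.0361 with the fish as a block), nor was that of 0.21 at 10 µM (0.145; 0.000143 with the block and 0.0488 without fish 1), and under library-size scaling the 10 µM value was −0.09. LOC106599563, a second serotransferrin, was not called, but was called higher with the block at 10, 30 and 100 µM (0.39, 0.33 and 0.31). mfi2 encodes melanotransferrin, a membrane-anchored relative. It had 22234, 29173 and 47619 normalised reads at 3 µM AsIII, against 2941, 9801 and 16211 in the AsIII control, a change of 1.98 ± 0.37 (adjusted p = 4.87e-05) without overlap. It stayed higher in 6 of 6 fish, by 1.15 at 10 µM (adjusted p = 0.0115), 0.91 at 30 µM (0.0472) and 1.00 at 100 µM (0.0309). The 10 and 30 µM calls were lost under library-size scaling (0.0582 and 0.0895). In AsV at 50 µM the 3 fish had 47740, 18317 and 30825, against 19865, 9613 and 4674 in the AsV control, called with the block alone (adjusted p = 0.0315; 0.273 without).

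Of the 7 transferrin receptor genes, only LOC106579454 and LOC106597167 were called at 3 µM AsIII, in opposite directions. That is a smaller share than the 54.5% of all genes called there. LOC106579454, transferrin receptor 1-like, had 1599, 1846 and 4415 normalised reads at 3 µM AsIII, against 441, 749 and 1417 in the AsIII control, a change of 1.44 ± 0.31 (adjusted p = 0.000266) without overlap. At 10 to 100 µM its differences from the control were between −0.28 and 0.23, and it was not called. LOC106597167, which RefSeq names tfr1a, had 3219, 4505 and 5706 at 3 µM AsIII, against 5524, 5733 and 9315 in the AsIII control. It was lower in 6 of 6 fish, by −0.55 ± 0.15 (adjusted p = 0.00246), although the groups overlapped. With the fish as a block it was also called at 30 µM (−0.21, adjusted p = 0.0123) and at 50 µM AsV (−0.64, adjusted p = 0.0398), where 3 of 3 fish were lower. The 3 genes for transferrin receptor 2, a liver iron sensor in mammals, and the 2 other receptor 1-like genes were called in no comparison with a control, except that the block called the receptor 2 gene LOC106596467 lower at 100 µM AsIII (−0.76, adjusted p = 0.0237; 0.0796 without).

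The hemopexins, plasma scavengers of free heme, rose modestly in AsIII. LOC106575321 (hpxb in RefSeq) had 119339, 139324 and 196924 normalised reads at 10 µM AsIII, against 82815, 90331 and 119047 in the AsIII control, without overlap. It changed by 0.34 at 3 µM (adjusted p = 0.0775; 6.77e-07 with the fish as a block), 0.63 ± 0.16 at 10 µM (0.00178), 0.45 at 30 µM (0.0237) and 0.47 at 100 µM (0.0206). LOC106586883 (hpxa) changed by 0.22, 0.45, 0.32 and 0.32 over the 4 doses. It was called at 10 µM (adjusted p = 0.0179; 0.0516 without fish 4), and with the block at 3, 30 and 100 µM too (0.000174, 7.23e-07 and 1.11e-06). Both were higher in 6 of 6 fish at every dose, and neither was called at any dose under library-size scaling, where 10 µM gave 0.32 and 0.15. The change of LOC106575321 exceeded that of LOC106586883 by means of 0.12 to 0.18 over the 4 doses, in 6 of 6 fish at each (exact permutation p = 0.03125, adjusted 0.04167).

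Of the 13 heme synthesis genes, 5 were called higher and 1 lower at 3 µM AsIII, 4 higher and 1 lower at 10 µM, 2 higher and 1 lower at 30 µM, and 2 each way at 100 µM. The shares called, 46.2%, 38.5%, 23.1% and 30.8%, were below the 54.5%, 47.2%, 41.6% and 39.9% of all genes. None was called in AsV or AsB. The 3 genes annotated as the nonspecific, or housekeeping, form of 5-aminolevulinate synthase, the first enzyme of the route, all rose at 3 and 10 µM. LOC106583798 had 11048, 14358 and 17623 normalised reads at 10 µM AsIII, against 2717, 3018 and 4445 in the AsIII control. Its median was 10688 at 3 µM, 10370 at 30 µM and 6522 at 100 µM, and no dosed library overlapped the control. The change was 1.76 ± 0.15 at 3 µM (adjusted p = 2.22e-11), 2.13 at 10 µM (4.26e-13), 1.71 at 30 µM (1.88e-10) and 1.12 at 100 µM (8e-07).

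The other synthase genes divided by dose. LOC106566237 had 13145, 13785 and 17157 normalised reads at 10 µM AsIII, against 5106, 5515 and 7129 in the AsIII control. It too was above the control without overlap at all 4 doses, with changes of 1.15 ± 0.10, 1.34, 1.16 and 0.90 (adjusted p = 5.67e-12, 2.51e-13, 1.94e-11 and 6.52e-09). LOC106566749 rose by 1.15 at 3 µM and 0.77 at 10 µM (adjusted p = 2.03e-08 and 3.12e-05), and its changes of 0.18 and 0.02 at 30 and 100 µM were not called.

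Enzymes after the first step did not share 1 dose pattern. Ferrochelatase LOC106572189 rose by 1.29 ± 0.13 at 3 µM (adjusted p = 5.19e-10) and by 0.49 at 10 µM (0.00292; 0.261 with library-size scaling), and its difference of 0.18 at 30 µM was called with the block alone (0.0336; 0.288 without). fech, the other ferrochelatase, had 1396, 1645 and 1913 normalised reads at 3 µM AsIII, against 608, 672 and 716 in the AsIII control, a change of 1.27 ± 0.15 (adjusted p = 6.09e-09) without overlap. Its differences at the higher doses, 0.32, −0.05 and −0.21, were not called, except at 10 µM with the block (0.0136; 0.0732 without). Uroporphyrinogen decarboxylase, a middle enzyme of the route, fell with dose. Its gene LOC106569255 had 137 to 303 normalised reads at 100 µM AsIII, against 504 to 899 in the AsIII control, without overlap. It changed by 0.48 at 3 µM (adjusted p = 0.063; 0.00255 with the fish as a block), −0.64 at 10 µM (0.0172), −1.71 ± 0.22 at 30 µM (1.96e-07) and −1.80 at 100 µM (9.13e-08), with 6 of 6 fish higher at 3 µM and 6 of 6 lower at the other doses. The other decarboxylase gene, dcup, fell by 0.67 at 100 µM (adjusted p = 0.0452; control median of 106 normalised reads). hem2, 5-aminolevulinate dehydratase, fell by 0.90 at 3 µM (adjusted p = 0.00758; control median of 56.3), each in 5 of 6 fish. The uroporphyrinogen-III synthases hem4 and uros, the coproporphyrinogen oxidases LOC106573996 and LOC106613521, and ppox were called at no AsIII dose, except hem4 at 30 µM with the block (−0.50, adjusted p = 0.0486; 0.0703 without) or library-size scaling (0.023).

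**Figure D4:**
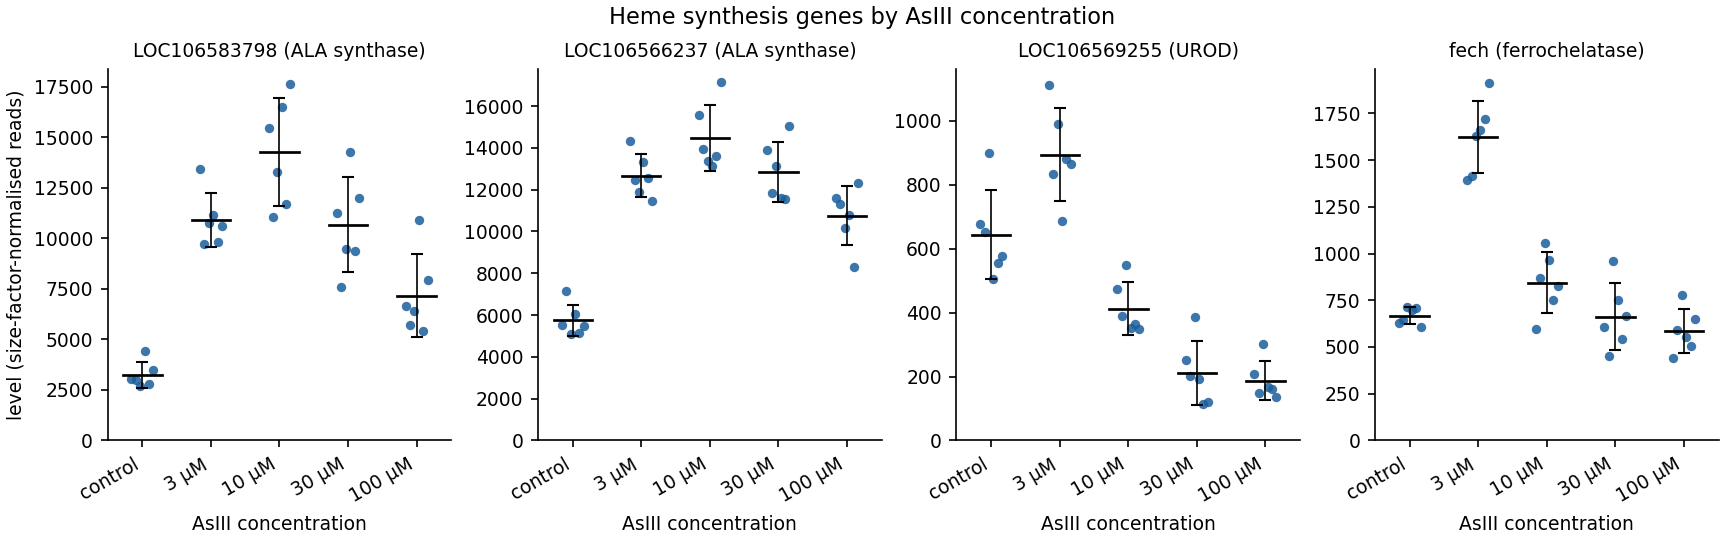
Level of 2 aminolevulinate synthase genes (LOC106583798, LOC106566237), uroporphyrinogen decarboxylase LOC106569255 and ferrochelatase fech in each AsIII library by dose, in normalised reads; points are the 6 fish, the line is the mean and the bar the SD. The synthases stay above the control at every dose, fech is raised at 3 µM, and LOC106569255 lies at 137 to 303 at 100 µM, against 504 to 899 in the control.

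In AsV the synthase gene LOC106583798 varied between fish. LOC106583798 had 3335, 3187 and 5858 normalised reads in fish 1, 2 and 3 at 50 µM AsV and 7779, 7153 and 2292 at 100 µM AsV, against 2718, 2428 and 2516 in the AsV control. Fish 3 was the highest of the 3 at 50 µM and the lowest at 100 µM, and the change of 0.98 at 100 µM was not called (adjusted p = 0.148). Its library at 100 µM AsV was below its own control, while those of fish 1 and 2 were above theirs. For blvra and LOC106574323, given below, fish 3 was also the highest at 50 µM AsV and the lowest at 100 µM AsV. Why fish 3 turned between these doses was not tested.

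The 2 biliverdin reductase genes differed, and were called in opposite directions at 10 and 30 µM AsIII only. Among changes called against a control, that of blvra was the largest of the 69 genes. It had 2745, 3351 and 4184 normalised reads at 3 µM AsIII, against 143, 271 and 335 in the AsIII control, a change of 3.80 ± 0.23 (adjusted p = 6.28e-15). At 10 µM it had 920, 1051 and 1585, again above every control library, a change of 2.21 (2.55e-09). At 30 µM the change was 0.67 (0.0188; 0.0675 with library-size scaling), with 4 of 6 fish higher, and at 100 µM it was −0.02 (0.964). LOC106599287, biliverdin reductase A-like, was not called at 3 µM and then fell by 0.66 ± 0.19 at 10 µM (adjusted p = 0.00482), 1.03 at 30 µM (5.46e-05) and 1.19 at 100 µM (8.66e-06). It had 320, 442 and 681 normalised reads at 100 µM AsIII, against 891, 1039 and 1193 in the AsIII control. Within fish, the change of blvra exceeded that of LOC106599287 by 3.95, 2.87, 1.71 and 1.17 over the rising doses, in 6 of 6 fish at each (exact permutation p = 0.03125, adjusted 0.04167).

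In AsV, blvra had 1305, 970 and 4274 normalised reads in fish 1, 2 and 3 at 50 µM and 3990, 3335 and 533 at 100 µM, against 276, 393 and 281 in the AsV control. Every library at both doses exceeded every control library, with changes of 2.49 ± 0.68 (adjusted p = 0.0485) and 2.62 ± 0.68 (0.0412). At 10 µM AsV it had 316, 276 and 184, overlapping the control. Fish 3 again had the highest value at 50 µM and the lowest at 100 µM. LOC106599287 was not called in AsV.

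**Figure D5:**
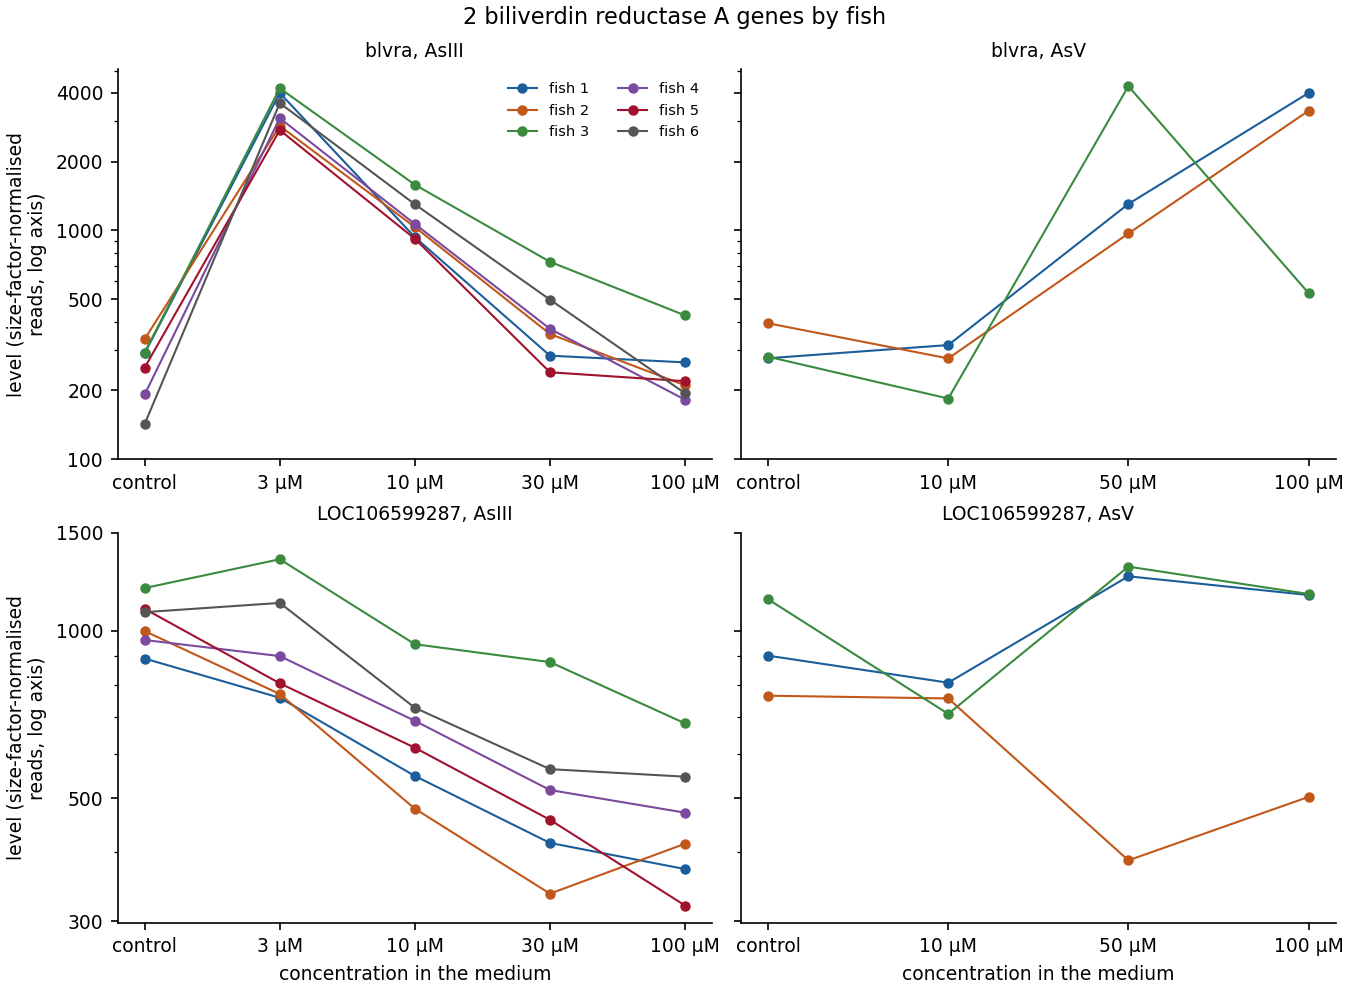
Level of blvra (top) and LOC106599287 (bottom) by dose of AsIII (left) and AsV (right), in normalised reads on log axes, with 1 line per fish. blvra is raised in all 6 fish at 3 µM AsIII and declines at higher AsIII doses while LOC106599287 declines with dose, and fish 3 differs from fish 1 and 2 at 50 and 100 µM AsV.

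Of the 11 iron-sulfur cluster assembly genes, 7 were called higher and 1 lower at 3 µM AsIII, 4 higher and 1 lower at 10 µM, and 1 higher and 2 lower at both 30 and 100 µM. The shares called were 72.7%, 45.5%, 27.3% and 27.3%, against 54.5%, 47.2%, 41.6% and 39.9% of all genes. LOC106568219, like IscU, the scaffold on which clusters form, had 17172, 19388 and 22640 normalised reads at 3 µM AsIII, against 4056, 5295 and 5576 in the AsIII control. Its change was 1.95 ± 0.11 at 3 µM (adjusted p = 1.02e-16), 0.92 at 10 µM (1.09e-08), 0.04 at 30 µM and −0.12 at 100 µM. LOC106570962 (isca1, a carrier that passes clusters on) had 2934, 3594 and 4203 at 3 µM AsIII, against 787, 873 and 1170 in the AsIII control. It rose by 1.97 ± 0.12 at 3 µM (adjusted p = 1.15e-15) and 0.81 at 10 µM (9.92e-07), and fell by 0.37 at 30 µM (0.0105) and 0.69 at 100 µM (1.68e-05), where no library overlapped the control. LOC106585986, a further copy of that carrier, rose by 1.54 at 3 µM (3.75e-07). Its difference of 0.48 at 10 µM had adjusted p = 0.0721, and 0.0257 with the fish as a block.

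With the block alone, LOC106579843, like the cluster carrier NFU1, was called at 10 µM (0.28, adjusted p = 0.0323; 0.0554 without), and LOC106591720, like the carrier ISCA2, at 30 µM (0.27, adjusted p = 0.00827; 0.0575 without).

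The cluster genes did not share 1 dose pattern. HscB, the co-chaperone of the scaffold, is encoded by LOC106579811, which fell at all 4 doses, by 0.57, 0.67, 0.81 and 0.81 (adjusted p = 0.00597, 0.00193, 0.000334 and 0.000389), in 6 of 6 fish each time. LOC106585603, like the late-acting carrier NFU1, rose with dose by 0.58 at 10 µM (0.047), 1.14 at 30 µM (0.00026) and 1.13 at 100 µM (0.000335), with medians of 110, 143 and 147 normalised reads, against 75.8 in the AsIII control. In AsV, LOC106585986 was the called gene of this group, with 230, 234 and 171.8 normalised reads at 100 µM AsV, against 62.6, 78.2 and 81.1 in the AsV control (adjusted p = 0.0227, 3 of 3 fish higher). LOC106568219 had 7983, 11891 and 16871 at 50 µM AsV, against 5112, 5096 and 4435 in the AsV control, without overlap but above the threshold (1.26, adjusted p = 0.0591; 0.04 with library-size scaling).

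Between neighbouring AsIII doses, most called genes were lower at the higher dose. At 10 against 3 µM, 3 genes were higher and 29 lower, against 14.6% and 15.7% of all genes, or 30.3% in all. Middle-subunit ferritins made up 16 of the 29, and blvra (−1.59), LOC106570962 (−1.16), LOC106568219 (−1.03) and fech (−0.96) were others. The 3 higher were trf (0.32), LOC106591720, like the iron-sulfur carrier ISCA2 (0.49), and LOC106597167 (0.44). At 30 against 10 µM, 2 were higher and 18 lower, against 9.98% and 11.4% of all genes, or 21.4% in all. With the fish as a block 4 were higher and 40 lower, and without fish 5 the count was 13. Library-size scaling gave 3 higher and 9 lower. Of 25801 genes tested, that scaling called 4323 higher and 1675 lower, where the authors' size factors gave 2575 and 2939. The balance of all genes in this step thus depends on the scaling. With the authors' size factors the 2 higher were hepc1 (0.66, adjusted p = 4.49e-06) and LOC106584527 (1.25, 0.00348). At 100 against 30 µM, limma called 1 gene, LOC106583798, lower by 0.59 (adjusted p = 0.0411), against 1.53% of all genes lower and 0.147% higher, or 1.67% in all. The block called 1 higher and 6 lower, and the call was lost without fish 1, 3, 5 or 6 in turn. Genes singled out in these steps because few were called were chosen after their values were seen.

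AsIII, AsV and AsB were compared at matched doses as differences between the changes from each compound's own control, in 7 comparisons. At 10 µM, AsIII minus AsV called 4 genes higher and 2 lower, against 6.94% and 3.74% of all genes, or 10.7% in all. LOC106583798 differed by 2.21 ± 0.34 (adjusted p = 1.16e-06), LOC106566237 by 1.26 (5.77e-06), blvra by 2.52 (0.0016) and LOC106568219 by 0.88 (0.0198), while aco1 differed by −0.66 (0.00664) and hepc1 by −0.57 (0.0263). With the fish as a block 17 were higher and 3 lower. No middle-subunit ferritin was called without the block there, and for LOC106600949 the difference was 0.35 with a 95% interval of −0.09 to 0.79.

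At 100 µM most called genes had a lower change in AsIII than in AsV. AsIII minus AsV called 1 gene higher and 23 lower, against 6.82% and 7.27% of all genes, or 14.1% in all, and 15 of the 23 were middle-subunit ferritins. LOC106600949 differed by −1.52 ± 0.22 (adjusted p = 3.18e-07, interval −1.96 to −1.09), having changed by 0.15 at 100 µM AsIII and 1.68 at 100 µM AsV. blvra differed by −2.63 ± 0.58 (0.000652), LOC106569255 by −2.42 ± 0.40 (5.39e-06), LOC106570962 by −1.44 (0.000183), LOC106568219 by −1.39 (6.54e-05) and aco1 by −1.15 ± 0.18 (1.27e-06). The 1 higher was LOC106566237, by 0.63 (0.0302). LOC106583798 did not pass the threshold, with a difference of 0.14 and an interval of −0.53 to 0.81. With the block, 4 were higher and 35 lower.

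Against AsB, the AsIII change was higher in 12 and lower in 3 genes at 10 µM (29 and 4 with the block), where 11.6% of all genes were higher and 8.38% lower, or 20.0% in all. At 100 µM it was higher in 2 and lower in 5 genes (6 and 5 with the block), where 7.31% of all genes were higher and 5.88% lower, or 13.2% in all. LOC106583798 differed by 2.13 at 10 µM and 1.11 at 100 µM (adjusted p = 8.09e-09 and 0.00318), and LOC106584587 by −0.78 and −1.03 (0.00715 and 0.000758). The AsV change exceeded that of AsB in 20 genes at 50 µM, where 5.16% of all genes were higher and 4.41% lower, or 9.56% in all. It exceeded that of AsB in 20 genes at 100 µM too, where 5.81% of all genes were higher and 3.97% lower, or 9.78% in all, and none of the iron and heme genes was lower at either dose. With the block these were 31 higher and 1 lower, and 32 higher and 1 lower. In each, 15 of the 20 were middle-subunit ferritins, and blvra differed by 2.83 at both doses. At 10 µM, AsV minus AsB called none, with 0.0% of all genes called and 1 of 69 at an unadjusted p under 0.05. There the difference was 0.25 for LOC106600949 (interval −0.18 to 0.69) and −0.26 for blvra (interval −1.42 to 0.90), intervals that leave room for differences of either sign.

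A further 97 genes of iron and heme handling that the name search did not take were grouped by role from their names. In AsIII, calls were 35 higher and 18 lower at 3 µM, 31 higher and 21 lower at 10 µM, 24 each way at 30 µM, and 25 higher and 26 lower at 100 µM. These were 54.6%, 53.6%, 49.5% and 52.6% of the 97, against 54.5%, 47.2%, 41.6% and 39.9% of all genes, so the share at 3 µM was near that of all genes. In AsV, of 96 tested, 7 were higher and 6 lower at 50 µM, and 8 higher and 5 lower at 100 µM, or 13.5% at each dose, against 6.97% and 6.68% of all genes. Of 6 hemoglobin-binding genes of the haptoglobin type, 3, 5, 4 and 5 rose over the AsIII doses and none fell. Of 6 genes for iron export and oxidation, 1 rose and 1 fell at 3 µM, and none rose and 4 fell at 100 µM.

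The largest changes in that list were spread over its roles. LOC106600932, a heme-binding protein 2-like gene, had 114, 177.3 and 275 normalised reads at 3 µM AsIII, against 0, 4.56 and 15.3 in the AsIII control (change 5.46 ± 0.74, adjusted p = 1.57e-07). LOC106574323, like ABCB6, a porphyrin transporter in mammals, rose at all 4 AsIII doses, by 2.89, 1.54, 1.13 and 1.18, and by 1.96 and 2.06 at 50 and 100 µM AsV (0.00763 and 0.00613). LOC106607031, like SLC25A38, a mitochondrial glycine carrier that feeds heme synthesis, rose by 2.75, 2.94, 2.85 and 2.28 over the AsIII doses. LOC106605430, like hemojuvelin, a co-receptor through which mammals switch hepcidin on, fell to 50.4 to 129 normalised reads at 3 µM AsIII, against 487 to 722 in the AsIII control (−2.74 ± 0.17, adjusted p = 2.67e-15). It also fell by 2.52, 1.46 and 0.97 at the higher AsIII doses, and by 1.94 and 1.76 at 50 and 100 µM AsV. Fish 3 had its lowest value at 50 µM AsV and its highest at 100 µM AsV, and the reverse held for LOC106574323.

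LOC106583265, like the iron importer NRAMP2, went opposite ways in the 2 inorganic compounds. It fell by 0.98, 1.18 and 1.08 at 10, 30 and 100 µM AsIII (adjusted p = 0.00163, 0.000302 and 0.000776) and rose by 2.90 ± 0.55 and 2.51 at 50 and 100 µM AsV (0.00828 and 0.0178). LOC106601558, like the mitochondrial glutathione carrier SLC25A39, fell by 2.08 and 1.75 at 3 and 10 µM AsIII. In AsV it fell by 2.59 and 2.25 at 50 and 100 µM. Fish 3 had the lowest values of both genes at 50 µM AsV and the highest at 100 µM AsV. LOC106583265 had 95153, 50780 and 32314 normalised reads in fish 1, 2 and 3 at 50 µM AsV. At 100 µM AsV these were 33977, 19903 and 101184. Of the low genes that complete the largest changes, LOC106604744, like poly(rC)-binding protein 3, changed by 3.61 at 10 µM AsIII and LOC106586140, like the iron exporter ferroportin, by 2.79 at 3 µM. LOC106590776, like hephaestin, changed by −2.51 at 100 µM AsIII, and was called with the block at 3 and 30 µM too (adjusted p = 0.0375 and 0.0156). LOC106586222, like cytochrome b reductase 1, was at 0 in 5 of 6 libraries at 10 µM AsIII, with 1.12 in the sixth, against 0 to 37.1 in the AsIII control.

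Some genes listed as markers of other cells were called too. At 3 µM AsIII the share called in each list was near or below that of all genes. Of all genes tested, 54.5%, 47.2%, 41.6% and 39.9% were called over the rising AsIII doses. At 3 µM AsIII 29.5% rose and 25.0% fell, and at 100 µM AsIII 22.6% rose and 17.3% fell. In AsV 6.97% were called at 50 µM and 6.68% at 100 µM. Of 10 erythroid markers, 2 rose at 3 µM and 4 fell at 100 µM, and their summed level was 401 to 930 normalised reads at 3 µM AsIII, 125 to 273 at 100 µM AsIII and 209 to 567 in the AsIII control. The summed hemoglobins were 293 to 766 at 3 µM AsIII, against 103.6 to 480 in the AsIII control. Of 3 leukocyte markers 1 fell at each dose, with sums of 5453 to 7433 at 3 µM AsIII, against 8465 to 10152 in the AsIII control. That sum is almost all cd68, with a median of 8215 reads over the libraries, where ptprc had 26 and mpeg1 had 66. Of 13 biliary markers 5 rose and 2 fell at 3 µM, with sums of 49291 to 68665 at 3 µM AsIII, against 30518 to 53876 in the AsIII control. The biliary sum too is mostly a few genes. That list took in keratins, including a keratin that hepatocytes also make, so its sum need not follow biliary cells. LOC106566972, LOC106572756 and LOC106564956 had medians of 30341, 11994.5 and 2247.5 reads over the libraries, where epcam had 7. Of 4 endothelial markers 1 fell at 3 µM, with sums of 21.9 to 79.0 at 3 µM AsIII, against 58.5 to 88.0 in the AsIII control. Of 16 hepatocyte markers 3 rose and 5 fell at 3 µM, and 7 rose and 3 fell at 100 µM. In AsV, 1 biliary marker rose and 2 hepatocyte markers fell at 50 µM, and 2 hepatocyte markers fell at 100 µM. The biliary sum was 39707 to 52631 at 50 µM AsV, against 28745 to 37750 in the AsV control, without overlap. The endothelial sum was 20.7 to 32.8 at 100 µM AsV, against 42.0 to 70.4 in the AsV control, also without overlap. The erythroid sum was 177.9 to 701 at 50 µM AsV and 300.1 to 907 at 100 µM AsV, against 218 to 386 in the AsV control. The endothelial marker kdr was at 0 in 22 of the 72 libraries and the biliary marker epcam in 20. The part of these cells in the iron and heme changes was not tested.

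Among the 10 pyruvate dehydrogenase kinase and phosphatase rows, 1 was called higher and 2 lower at 3 µM AsIII, and 1 each way at 10 µM. At both 30 and 100 µM, 2 were higher and 1 lower. At each dose the share of these rows called was below the 54.5%, 47.2%, 41.6% and 39.9% of all genes. None was called in AsV or AsB. The block added LOC106607477 as higher at 10, 30 and 100 µM and LOC106570467 as higher at 10 µM. At 3 µM AsIII the kinase gene LOC106570467 changed by 1.52, and pdk1 (−1.27) and the phosphatase gene LOC106573473 (−1.47) fell.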

How the data were processed

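RNA-seq libraries of salmon hepatocytes were used as 1 deposited table of 25830 genes and 72 libraries. Reads were aligned with HISAT2 and counted with featureCounts of Subread, per the submitters' processing notes, with no version for these; the notes also name DESeq2 1.40.2. The values the authors deposited are a signal, read counts divided by 1 size factor per library. In every library 100.0% of values were whole multiples of 1 read (tolerance 0.01 reads), which gave back the read counts. For the genome build and for reads with several matches, the choice made was not given in the sources used here. RefSeq's gene table (Ssal_v3.1) matched 59 of the 69 genes and was used for names and, through its start positions, for neighbours. Planned sequences and motifs were not used here. There was no column of another series.

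log2(value + 1) was tested with limma 3.58.1 in R 4.3.3 (intensity trend, robust variances), with 1 mean per group and 1 fit per compound (30, 12 and 30 libraries), after keeping genes at 10 or more in as many libraries as the smallest group. Differences between compounds came from 1 fit over all 72 libraries. P-values were adjusted by Benjamini and Hochberg over all genes tested. Changes are on the log2(value + 1) scale, which understates those of low genes. The fits were tested on simulated data. Of 200 genes given a change of 1 unit, up or down, 140 were called with the right sign at 10 µM AsIII. At 50 µM AsV 84 of 200 were, so a gene not called in AsV may still differ. Calls of unchanged genes numbered 6 and 5. The simulation changed only these 200 genes, took its spread from control libraries and held no fish effect. In the data far more genes were called, so these rates need not hold there. Pairs of genes were compared by two-sided exact permutation tests over fish. No 2 libraries of a group were copies: over 162 pairs the lowest chi-square per gene was 18.6.

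Fish numbers name the same animal in each group, so they pair the libraries. Deviations from group means, over 16671 genes, correlated between libraries of the same fish by 0.414 on average in AsIII (lowest 0.157), 0.190 in AsV (lowest −0.294) and 0.260 in AsB (lowest 0.106). Calls against a control that the block added among the 79 rows are given by gene or within a count. The labels name no batch. p-values of the fit without the block measure the spread between libraries of a group, which come from different fish, and leave the pairing out. Those with the block, and of the permutation tests, measure how differences within fish vary between these fish.

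The members and lists were chosen with earlier results of these data known. Values per library are given for the gene of each role with the most reads and up to 3 with the largest called change against a control, and for up to 10 other iron and heme genes with the largest called change; other genes are named as examples or where a count is small. Alternatives were pseudocounts of 0.5 and 8, no filter, library-size scaling, edgeR 4.0.16 and DESeq2 1.42.0 on the recovered reads, the fish block, and leaving out each fish or 1 of the 2 AsIII libraries that stood apart. On the recovered reads edgeR called 14194, 12311, 10840 and 10467 of all genes over the rising AsIII doses, where limma called 14074, 12189, 10727 and 10306. At 50 and 100 µM AsV edgeR called 1872 and 1904 and limma 1775 and 1701. The number of libraries and depth limit genes with few reads most.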

Additional observations from a re-analysis of the deposited data

Results flagged for a closer look

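In 16 of 210 sets of values looked at (named gene by group of 6 fish), 1 library lay far from the other 5 by Dixon's test, which chance alone does in about 1 in 20 sets. In AsIII, fish 3 was high for blvra at 100 µM, with 425 normalised reads where the other fish had 182 to 265, and for LOC106600955 at 3 µM, with 1703 where the others had 823 to 1049. In the AsIII control fish 3 was high for LOC106570962, with 1170 where the others had 787 to 911. Fish 1 was high for LOC106579454 at 3 µM AsIII, with 4415 where the others had 1599 to 2241, and low for hepc1 at 3 µM AsIII, with 24382 where the others had 32507 to 36935. Fish 2 was low for hepc1 at 100 µM AsIII, with 40920 where the others had 50558 to 54289.

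The other 10 sets were in AsB. Fish 1 stood high for LOC106579454 at 100 µM (1217; others 442 to 726) and 500 µM (1396; others 469 to 702), for LOC106586883 at 50 µM (657670; others 393111 to 456631) and in the control (619987; others 395053 to 479126), and for LOC106569255 at 10 µM (890; others 439 to 576). Fish 4 stood high for LOC106583798 at 10 µM (4545; others 2519 to 3150) and 50 µM (5154; others 2528 to 3314), and low for LOC106599287 in the control (606; others 986 to 1104). Fish 5 stood low for LOC106570962 at 500 µM (528; others 791 to 939), and fish 3 high for LOC106585986 in the control (123; others 61.3 to 73.4).

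In 6 comparisons between compounds the test of the difference between the 2 changes called iron and heme genes. Of 69 genes, AsIII differed from AsV in 6 at 10 µM and 24 at 100 µM, against 10.7% and 14.1% of all genes. AsIII differed from AsB in 15 at 10 µM and 7 at 100 µM, against 20.0% and 13.2% of all genes. AsV differed from AsB in 20 at 50 µM and 20 at 100 µM, against 9.56% and 9.78% of all genes. The share of the 69 was below that of all genes for AsIII minus AsV at 10 µM and for AsIII minus AsB at 100 µM.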

How the results depend on the processing

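Counts of called iron and heme genes stayed within 1.5 times under both other pseudocounts, no filter and edgeR in every comparison. With the fish as a replicate block they grew to 31 at 30 µM AsIII, 26 at 100 µM AsIII, 44 for 30 against 10 µM and 7 for 100 against 30 µM. The block also gave 20 and 39 for AsIII minus AsV at 10 and 100 µM, 33 and 11 for AsIII minus AsB at 10 and 100 µM, and 32 and 33 for AsV minus AsB at 50 and 100 µM; it lost no call of an iron or heme gene. Library-size scaling gave 12 for 30 against 10 µM, and DESeq2 gave 10 for AsIII minus AsV at 10 µM. All-gene counts with the block are not given here, so the growth with the block cannot be read as particular to these genes. The cause of these moves was not tested. Of the changes of the 21 named genes, that of trf at 10 µM AsIII turned to −0.0922 under library-size scaling.

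Leaving out each fish in turn gave 39 to 42 at 3 µM AsIII, 32 to 41 at 10 µM, 11 to 16 at 30 µM and 12 to 13 at 100 µM. It gave 27 to 30 for 10 against 3 µM, 13 to 21 for 30 against 10 µM and 0 to 1 for 100 against 30 µM. In AsV it gave 10 to 14 at 50 µM, with 10 without fish 3, and 10 to 23 at 100 µM, with 10 without fish 2. Between compounds it gave 5 to 7 and 20 to 24 for AsIII minus AsV, 12 to 15 and 6 to 7 for AsIII minus AsB, and 14 to 21 and 15 to 22 for AsV minus AsB at 50 and 100 µM. Counts stayed at 0 for AsB, for 10 µM AsV and for AsV minus AsB at 10 µM. Depth limits genes such as LOC106584527, with a median of 41.8 normalised reads in the AsIII control, and 3 fish limit AsV.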
